A study of Mus musculus with 12 samples.

Results

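Lysosomal ion channels and solute transporters were examined as a group of 10 genes among the 21887 protein-coding genes annotated on the assembled chromosomes of the mouse build GRCm38. The members were given as a list of names of genes for exchangers, channels and transporters of lysosomes and late endosomes, with 1 subunit (Clcn7, Ostm1, Clcn6, Mcoln1, Tpcn1, Slc36a1, Slc38a9, Ctns, Mfsd1 and Slc17a5). Each was assigned the USF2 peaks whose summit lay within 1000 bp of either end of the gene or inside it. Of the 10 genes, 7 had such a peak in at least 1 list, and all of these peaks lay at a gene end, which 4.05% of protein-coding genes had in at least 1 list. The group was put together with earlier results of these peak lists known, so its share is a description and no independent evidence; of 56 further channels and transporters of lysosomes and late endosomes, 6 had a gene-end peak in at least 1 list.

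The study used ChIP-seq, which sequences the DNA fragments precipitated with an antibody against a protein, to map the transcription factor USF2 in mouse embryonic fibroblasts (MEFs), cells grown from embryos. The labels give genotype WT for all 4 USF2 libraries and distinguish glucose starvation (2 libraries) from a treatment called Normal (2 libraries), which are named starved 1, starved 2, normal 1 and normal 2 below. The duration of starvation and the origin of the replicates in separate cultures are not given in the sources used here, so the spread between replicates may be technical. The other 8 of the 12 samples are inputs and H3K27ac libraries and were not analysed here. Peak lists hold no expression values, so the fibroblast identity of the cells was not checked against markers.

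Lysosomes are acidified by a proton pump, and their interior is kept in ionic balance and emptied of digestion products by the proteins of this group. Exchangers and channels move chloride, calcium, sodium and iron across the membrane, and transporters export the amino acids, dipeptides, cystine and sialic acid released by lysosomal hydrolases. USF2 belongs to the basic helix-loop-helix leucine zipper proteins, which bind as dimers to the E-box, a palindrome read as CACGTG on both strands. The MiT/TFE factors, known regulators of lysosomal genes, recognise the same core.

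The promoter sequences of the 7 genes with a peak are shown first, because they differ in the number of E-boxes. They are RefSeq sequences of GRCm38.p6 from 250 bases before to 50 bases after an annotated transcript start, 5′ to 3′ on the strand of the gene. In the first group of 5 genes the capitals mark every CACGTG. The windows lie at chr17:25133141-25133440 (Clcn7, plus strand), chr4:148038764-148039063 (Clcn6, minus strand), chr8:3500269-3500568 (Mcoln1, plus strand), chr11:55204090-55204389 (Slc36a1, plus strand) and chr3:67582518-67582817 (Mfsd1, plus strand).
Clcn7: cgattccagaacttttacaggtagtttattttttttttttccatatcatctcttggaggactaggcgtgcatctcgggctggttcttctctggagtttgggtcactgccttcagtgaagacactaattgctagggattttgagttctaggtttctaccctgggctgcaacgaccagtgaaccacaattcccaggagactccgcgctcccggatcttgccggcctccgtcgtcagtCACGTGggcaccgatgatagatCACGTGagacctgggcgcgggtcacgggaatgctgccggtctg
Clcn6: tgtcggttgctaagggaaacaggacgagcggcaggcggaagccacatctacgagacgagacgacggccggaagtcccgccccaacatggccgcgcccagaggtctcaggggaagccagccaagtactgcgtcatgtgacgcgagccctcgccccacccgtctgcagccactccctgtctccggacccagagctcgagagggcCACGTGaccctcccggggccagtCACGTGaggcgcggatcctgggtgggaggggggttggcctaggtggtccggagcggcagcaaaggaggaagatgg
Mcoln1: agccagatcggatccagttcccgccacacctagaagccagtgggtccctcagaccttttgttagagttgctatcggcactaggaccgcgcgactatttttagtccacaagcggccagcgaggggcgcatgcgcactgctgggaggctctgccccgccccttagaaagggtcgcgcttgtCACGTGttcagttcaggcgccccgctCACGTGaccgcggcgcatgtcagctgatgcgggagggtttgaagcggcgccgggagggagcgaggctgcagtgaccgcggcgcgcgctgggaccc
Slc36a1: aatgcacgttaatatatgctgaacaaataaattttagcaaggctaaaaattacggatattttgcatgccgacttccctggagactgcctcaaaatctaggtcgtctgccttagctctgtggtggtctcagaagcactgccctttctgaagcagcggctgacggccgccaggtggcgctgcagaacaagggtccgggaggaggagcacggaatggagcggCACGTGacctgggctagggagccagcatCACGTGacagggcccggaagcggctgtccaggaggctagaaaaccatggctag
Mfsd1: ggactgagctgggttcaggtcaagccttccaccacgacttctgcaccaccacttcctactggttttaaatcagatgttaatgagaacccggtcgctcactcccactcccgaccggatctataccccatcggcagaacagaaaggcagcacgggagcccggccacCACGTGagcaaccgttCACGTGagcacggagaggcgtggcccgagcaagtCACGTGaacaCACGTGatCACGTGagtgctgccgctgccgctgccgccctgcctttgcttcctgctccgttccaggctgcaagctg

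The windows of Ostm1 (chr10:42678666-42678965, plus strand) and Ctns (chr11:73198993-73199292, minus strand) hold no CACGTG. There the capitals mark the looser form CANNTG, in which N is any base. CANNTG is also a palindrome, contains CACGTG as a special case and occurs in 72.3% of all 32851 promoter windows of the annotation, against 7.15% for CACGTG.
Ostm1: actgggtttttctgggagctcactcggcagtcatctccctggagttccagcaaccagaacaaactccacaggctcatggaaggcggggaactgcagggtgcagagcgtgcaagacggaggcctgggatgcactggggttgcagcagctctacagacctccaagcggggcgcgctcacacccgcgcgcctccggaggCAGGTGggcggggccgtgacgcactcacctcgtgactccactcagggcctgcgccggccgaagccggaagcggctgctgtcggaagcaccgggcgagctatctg
Ctns: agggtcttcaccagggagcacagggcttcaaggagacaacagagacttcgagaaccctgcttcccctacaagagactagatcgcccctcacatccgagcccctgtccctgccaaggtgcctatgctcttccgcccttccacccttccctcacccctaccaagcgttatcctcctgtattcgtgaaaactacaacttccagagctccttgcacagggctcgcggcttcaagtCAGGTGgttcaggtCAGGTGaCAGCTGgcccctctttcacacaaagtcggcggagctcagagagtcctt

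A promoter window was available for 9 of the 10 genes. Clcn7, Clcn6, Mcoln1 and Slc36a1 each held 2 E-boxes and Mfsd1 held 5. Slc38a9 held no CACGTG but 4 CANNTG, and Slc17a5 held neither. So 5 of 9 windows held CACGTG, against 8.91% of the 17492 protein-coding genes with a window, and all of these 5 held at least 2, against 0.863%. Mfsd1 was 1 of 2 protein-coding genes with at least 5 E-boxes, and the other was called in no list. In each of the 5 windows at least 1 E-box was preceded by T and followed by A, a flanked form found in 1.41% of protein-coding genes (3 such E-boxes in Mfsd1 and 1 in each of the other 4 genes). The longer form with GT before and AC after the core was found in none of the 9 windows and in 0.469% of all protein-coding genes. These traits were more frequent among the 196 genes called in all 4 lists that had a window than among all protein-coding genes. Of those, 74.0% held CACGTG, 30.1% at least 2, 38.3% the form with T and A and 13.3% the longer form.

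All 5 genes with an E-box had a gene-end peak in all 4 lists, which was the case for 1.13% of all protein-coding genes. None of the 4 genes whose window lacked CACGTG was called in all 4 lists: Ostm1 and Ctns were called in the lists of 1 condition each, and Slc38a9 and Slc17a5 in none. Across all protein-coding genes the share called in all 4 lists was 0.320% without CACGTG (51 of 15933), 6.11% with 1 (86 of 1408; 95% exact interval 4.91 to 7.49), 38.5% with 2 (50 of 130; 30.1 to 47.4) and 42.9% with 3 or more (9 of 21; 21.8 to 66.0). Most genes with 2 or more E-boxes were thus not called in all 4 lists, while the 5 genes of the group were. These 5 are counted in the shares above and were chosen with earlier results of these lists known, so the contrast is a description only. A motif match is a description of the sequence and not a measured binding site.

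**Figure D1:**
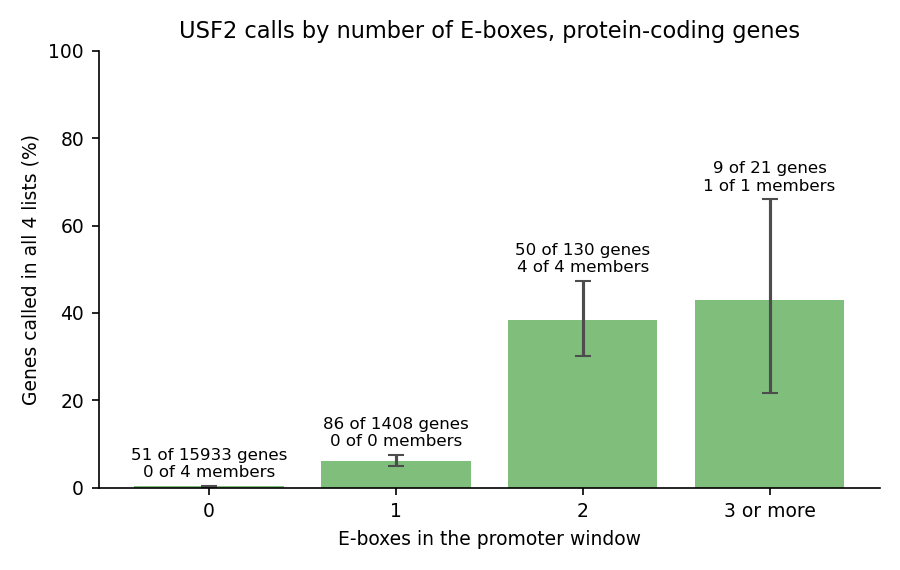
Share of protein-coding genes with a gene-end USF2 peak in all 4 lists (y axis, percent) by the number of CACGTG E-boxes in the promoter window (x axis). Bars give the share and error bars its 95% exact binomial interval, which covers counting error only. The share is 0.320% with no E-box and 38.5% with 2, and the 5 members with E-boxes all fall among the called genes. The members were chosen with earlier results of these lists known.

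The E-boxes of the group sat close to the transcript start. The first bases of the 13 E-boxes lay between 86 bases before and 7 bases after the start, with a median of 31 bases before it. All 13 fell in the stretch from 100 bases before to 20 bases after the start, which held 74.6% of the 205 E-boxes of other genes called in all 4 lists and 51.6% of the 1520 E-boxes of the remaining genes. In the 4 promoters with exactly 2 E-boxes the first bases were 22 bp (Clcn7), 23 bp (Clcn6), 26 bp (Mcoln1) and 28 bp (Slc36a1) apart. Of 46 other genes with exactly 2 E-boxes and calls in all 4 lists, 7 (15.2%) had a distance from 20 to 30 bp, and their median distance was 40 bp. Both stretches were chosen after these values were seen, so the shares are a description only.

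**Figure D2:**
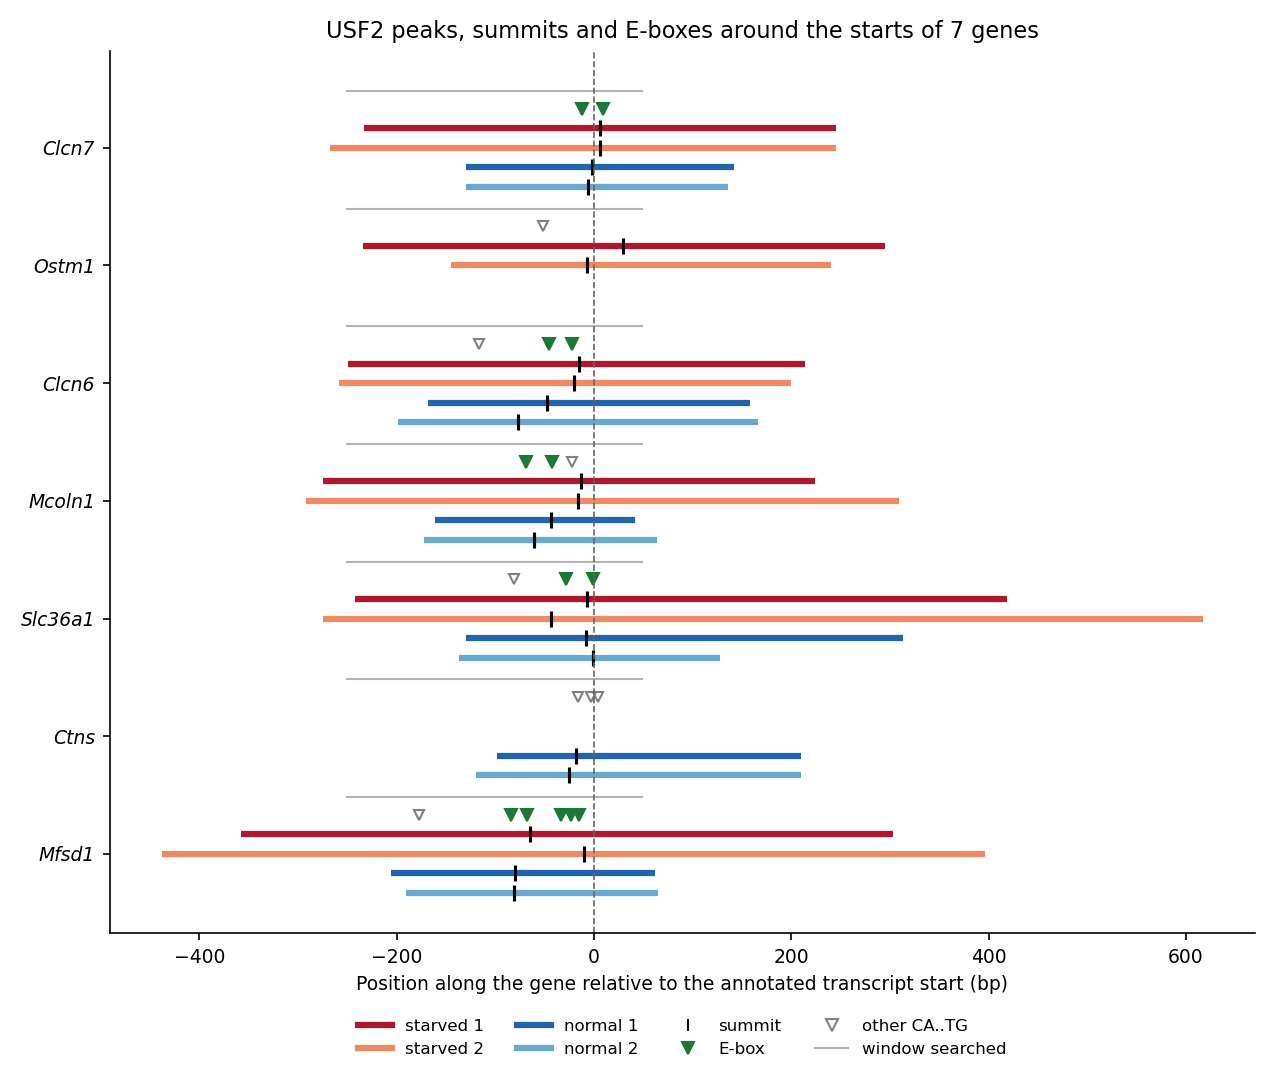
Position of USF2 peaks (coloured bars), summits (black ticks), E-boxes (filled triangles) and other CANNTG matches (open triangles) relative to the annotated transcript start (x axis, bp along the gene; grey line, promoter window searched) for the 7 genes with a peak. All summits lie within 81 bp of the start or end of the annotated gene span, and E-boxes are drawn in 5 of the 7 genes.

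In every list 6 of the 10 genes had a gene-end peak, against 2.01% of protein-coding genes in starved 1 and 2.30% in starved 2, and 2.54% in normal 1 and 2.68% in normal 2. The number of genes was equal in starved and normal lists (difference 0, two-sided exact permutation of the 4 list labels, p = 1; the smallest p that 2 against 2 lists allow is 0.33). Both starved lists called 6 genes, against a background of 1.78% of protein-coding genes, and both normal lists called 6, against 2.19%. Clcn7, Clcn6, Mcoln1, Slc36a1 and Mfsd1 were common to them. Ostm1 made the sixth after starvation and Ctns in normal culture. Absence from a list means only that no peak passed the authors' calling threshold at that gene. The minimum peak width also differed between starved and normal lists (306 against 152 bp), and starvation cannot be told apart from it.

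The values below are the fold enrichment of each peak, −log10 q, its adjusted significance, and the rank of the fold enrichment within the list. Fold enrichment is a value of the authors' peak caller: the read pileup at the summit over the local background, with 1 added to both. The lists held 825 (starved 1), 1178 (starved 2), 1645 (normal 1) and 2124 (normal 2) peaks. The starved lists were made with a larger minimum width (306 bp, against 152 bp in the normal lists), so a fold enrichment or rank is read within its list and no fold change between lists is given. For calls, summit positions and summit reads too, starvation cannot be told apart from this difference in peak width. Counting intervals are exact 95% Poisson intervals of the reads at a summit, recovered from the deposited values, and cover counting error only.

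Chloride transport was represented by Clcn7, Ostm1 and Clcn6. Clcn7, the chloride/proton exchanger of lysosomes and of the bone-resorbing border of osteoclasts, had a region on chromosome 17 (25133124 to 25133636). Its fold enrichment was 11.4 in starved 1 and 13.2 in starved 2 (ranks 58 and 32), and 18.5 in normal 1 and 18.0 in normal 2 (ranks 16 and 21). The −log10 q was 19.5 and 24.1 in the starved lists and 35.8 and 34.3 in the normal lists. Clcn7 was the first of the group in normal 1 and the second in normal 2 and starved 2. Its summits in the 4 lists lay within 12 bp of each other and between 1 and 8 bp from a CACGTG.

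Ostm1 encodes the β-subunit that ClC-7 needs for stability, and mutations of either gene cause osteopetrosis in mouse and human. Its region (chromosome 10, 42678682 to 42679211) had a fold enrichment of 6.32 in starved 1 and 6.94 in starved 2, with −log10 q of 4.81 and 6.62, and there was no peak in either normal list. These were the weakest peaks of the group in both starved lists (ranks 299 of 825 and 270 of 1178), resting on 10 reads (interval 4.80 to 18.4) in starved 1 and 13 reads (6.92 to 22.2) in starved 2. Both peaks spanned the annotated start, with summits 29 bp after and 7 bp before it. The only CANNTG of the window, a CAGGTG, lay 78 and 42 bp from the summits. Calls in both starved lists and neither normal list occurred at 0.557% of protein-coding genes (13.8% of the 887 genes called in at least 1 list). The 2 subunits of the exchanger differed in their calls: Clcn7 had peaks in all 4 lists and Ostm1 in the starved lists. Starvation and the larger minimum peak width of the starved lists cannot be told apart in this difference. With a −log10 q of at least 5 required, Ostm1 lost its call in starved 1 and was left with that in starved 2.

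Clcn6, the related exchanger of late endosomes, had a region at the end of its annotated span, where transcription on the minus strand starts (chromosome 4, 148038599 to 148039071). The fold enrichment was 12.3 in starved 1 and 11.5 in starved 2 (ranks 48 and 61), and 7.81 in normal 1 and 10.4 in normal 2 (ranks 259 and 152). It was the third of the group in both starved lists and the lowest of the group in both normal lists. The reads at its summit were 31 and 31 in the starved lists and 30 and 31 in the normal lists, the highest of the group in both starved lists. Its local background was also high, 1.61 and 1.78 reads in the starved lists and 2.97 and 2.08 in the normal lists. Ranked by −log10 q in place of fold enrichment, Clcn6 stood at 30 and 38 in the starved lists and 127 and 75 in the normal lists.

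The summits of the Clcn6 region lay 15 and 20 bp (starved 1 and 2) and 48 and 77 bp (normal 1 and 2) from the Clcn6 end. The region was given to Clcn6 by this distance alone, which does not show that it acts on that gene or on no other.

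Of the cation channels, Mcoln1 was called and Tpcn1 was not. Mcoln1 encodes mucolipin, which releases calcium and iron from lysosomes, and its loss causes the storage disease mucolipidosis type IV. Its region (chromosome 8, 3500227 to 3500828) had a fold enrichment of 7.42 in starved 1 and 7.17 in starved 2 (ranks 196 and 244), and 12.7 in normal 1 and 12.0 in normal 2 (ranks 77 and 97). The −log10 q was 10.9 and 8.83 in the starved lists and 28.7 and 26.3 in the normal lists. In the starved libraries 22 reads (13.8 to 33.3) stood over a background of 2.10 and 18 reads (10.7 to 28.4) over 1.65. In the normal libraries it had the highest pileup of the group, 38 reads (26.9 to 52.2) and 36 reads (25.2 to 49.8), over a background of 2.08 reads in both.

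The summits of the Mcoln1 peaks lay 27 and 24 bp from an E-box in starved 1 and 2, at 13 and 16 bp before the start. In the normal lists they lay in an E-box and 5 bp from one, at 43 and 61 bp before the start. The other end of Mcoln1 borders Pnpla6, and no peak lay there. Tpcn1, an endolysosomal sodium and calcium channel, had no peak inside the gene or within 1000 bp of it, and the nearest summit outside was 307 kb away, in starved 2.

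**Figure D3:**
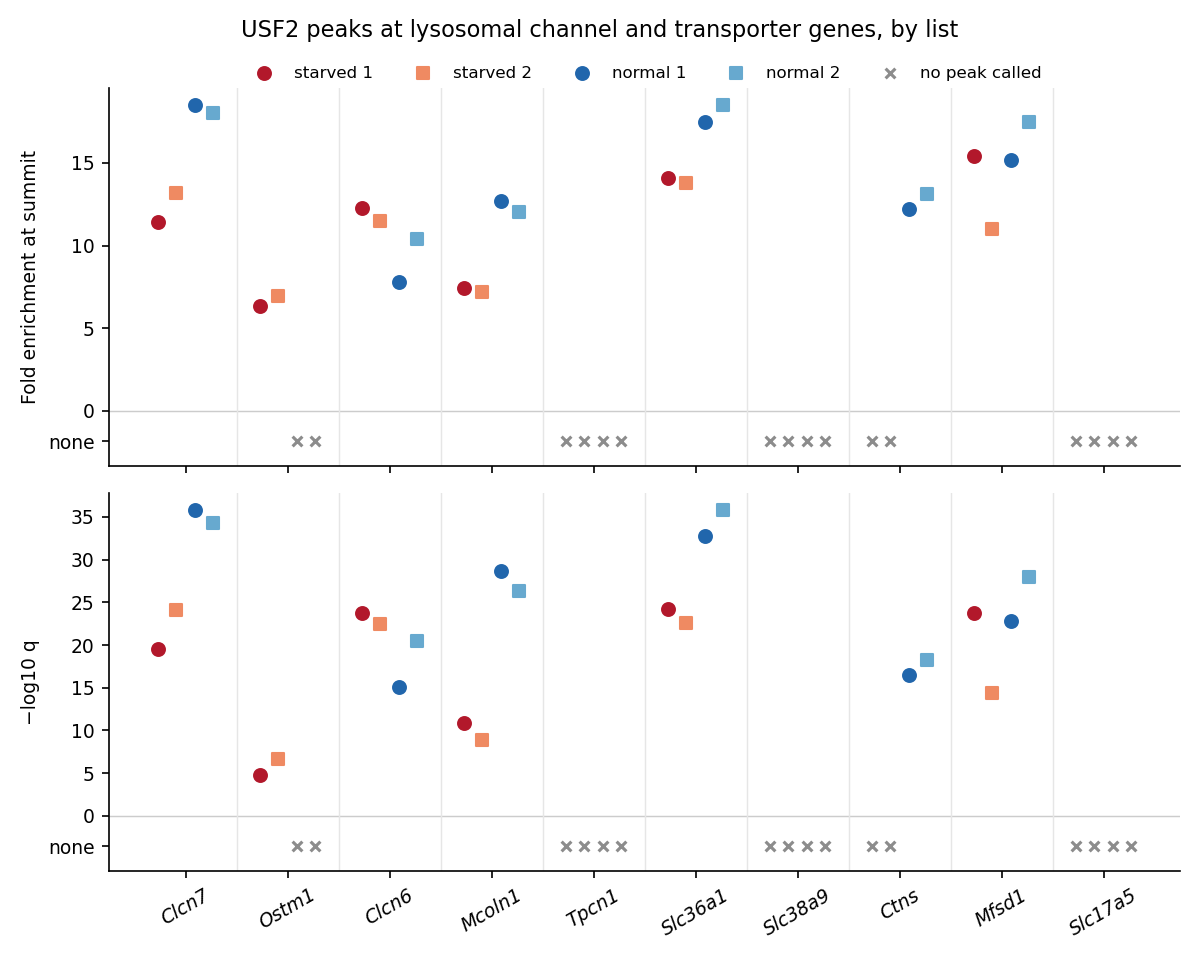
Fold enrichment (upper panel) and −log10 q (lower panel) of the USF2 peak at each of the 10 genes; each point is the peak of 1 list and crosses mark lists with no peak called. The 6 genes called in each list range from 6.32 to 18.5 in fold enrichment, and Tpcn1, Slc38a9 and Slc17a5 have no peak.

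Among the amino acid transporters, Slc36a1 was called in every list and Slc38a9 in none. Slc36a1, a proton-coupled exporter of small neutral amino acids, had a region on chromosome 11 (55204065 to 55204957). The fold enrichment was 14.1 in starved 1 and 13.8 in starved 2 (ranks 28 and 26), and 17.5 in normal 1 and 18.5 in normal 2 (ranks 24 and 17). The −log10 q was 24.2 and 22.6 in the starved lists and 32.8 and 35.8 in the normal lists. It was first or second of the group in each of the 4 lists. The summits were at most 12 bp from an E-box, and in normal 2 the summit fell inside the E-box that overlaps the transcript start itself. Slc38a9, the lysosomal arginine sensor that acts on mTORC1, had its nearest summit 130 kb away, in normal 1.

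Mfsd1 encodes an exporter of dipeptides that works with an accessory glycoprotein. Its region lay on chromosome 3 (67582330 to 67583164). The fold enrichment was 15.4 in starved 1 and 11.0 in starved 2 (ranks 16 and 67), and 15.2 in normal 1 and 17.5 in normal 2 (ranks 45 and 24). It led the group in starved 1 and was the fourth of 6 in starved 2, and the −log10 q of 23.8 and 14.4 shows the same gap between the starved replicates. The corresponding pileups, 22 reads (13.8 to 33.3) and 17 reads (9.90 to 27.2), overlapped in their counting intervals. The background was low in all lists, 0.494 and 0.635 reads in the starved and 0.316 reads in both normal libraries.

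The summits at Mfsd1 were never more than 3 bp from one of its 5 E-boxes, but not from the same one. In starved 1 the summit lay 65 bp before the start, in the outer pair of E-boxes, and in starved 2 it lay 10 bp before the start, next to the innermost E-box. In normal 1 and normal 2 the summits lay 80 and 81 bp before the start, again at the outer pair. The spread over the 4 lists was 71 bp, the widest of the group, while the 2 normal summits were 1 bp apart.

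Ctns encodes cystinosin, which exports cystine from lysosomes and is mutated in cystinosis. Its region (chromosome 11, 73198832 to 73199161) was absent from both starved lists and had a fold enrichment of 12.2 in normal 1 and 13.1 in normal 2 (ranks 84 and 75; −log10 q 16.5 and 18.3). The peaks rested on 14 reads (7.65 to 23.5) and 15 reads (8.40 to 24.7) over the lowest background of the group, 0.226 reads. The summits fell in and 6 bp from a CAGGTG. They lay 55 and 48 bp from the Ctns end and 72 and 65 bp from the annotated span of Shpk, a sugar kinase gene. The Ctns and Shpk spans are 16 bp apart. From the annotated transcript start of Ctns the summits were 18 and 25 bp away, and that of Shpk lay 440 bp from the Ctns start. By distance to the gene spans the region was thus shared by both genes, which does not show that it acts on either. Calls in both normal lists and neither starved list occurred at 0.841% of protein-coding genes (20.7% of those called in at least 1 list).

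Among genes with a promoter window, CACGTG was held by 61.7% of the 107 genes called in both starved lists alone, as Ostm1 was, and by 24.1% of the 145 genes called in both normal lists alone, as Ctns was. For genes called in all 4 lists the share was 74.0% of 196. The 2 starved peaks at Clcn7 ended at the identical base, and the 2 normal peaks at Clcn7 and at Ctns began at the identical base. An identical edge was found in 21.7% of the regions called in both starved lists and 44.8% of those called in both normal lists, and its part in the results was not tested. Local background was also equal in both normal lists at Clcn7, Slc36a1, Mcoln1, Ctns and Mfsd1, but not at Clcn6 (2.97 and 2.08 reads). Between the starved lists it differed at every called member. Whether the normal lists share a background was not tested, so their calls may not be fully independent. In each of the 4 lists the weakest gene-end peak of any gene had 3 reads at its summit.

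The sialic acid exporter gene Slc17a5 had no peak within 1000 bp, and the nearest summit lay 476 kb away, in normal 2. No member peak lay inside a gene away from its ends. The nearest peak outside the 1000 bp limit was 6433 bp before Ostm1 in starved 1, with a fold enrichment of 4.42 and 4 reads, and the farthest summit inside the limit was 81 bp from a gene end (Mfsd1 in normal 2).

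**Figure D4:**
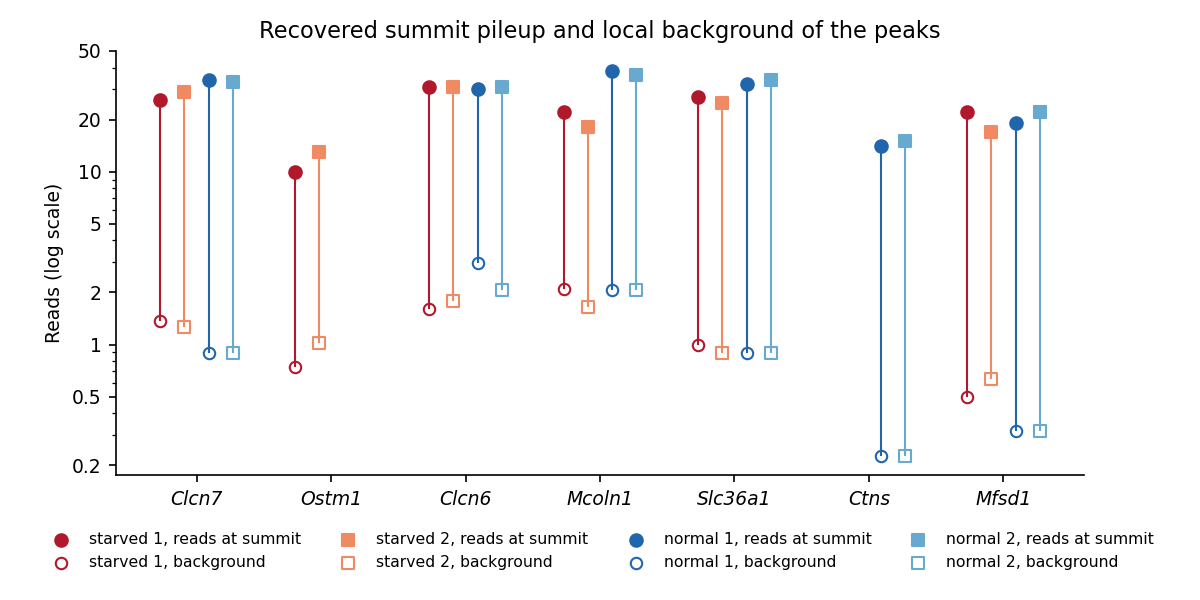
Reads at the summit (filled symbols) and local background (open symbols) recovered for each peak of the 7 called genes, on a log axis of reads; each symbol pair joined by a line is 1 list. Clcn6 and Mcoln1 have backgrounds between 1.61 and 2.97 reads, Ctns 0.226 and Mfsd1 between 0.316 and 0.635.

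By their median, the 6 called peaks of the 10 genes stood high within each list, and the uncalled genes have no value. The median fold enrichment of these 6 peaks was 11.9 in starved 1 and 11.2 in starved 2, and 13.9 in normal 1 and 15.3 in normal 2. All gene-end peaks of the same lists had medians of 7.03 and 6.81 in the starved lists and 7.41 and 7.53 in the normal lists. They include peaks of genes called in 1 list only and peaks of 3 reads. The members were chosen with earlier results of these lists known, so the comparison is a description only. Of the 6 peaks, 4 were among the 100 highest by fold enrichment in each starved list, the exceptions being Mcoln1 and Ostm1, and 5 in each normal list, the exception being Clcn6. Summits of the 5 genes with E-boxes lay a median of 4 and 3 bp from a CACGTG in the starved lists and 1 and 4 bp in the normal lists. At other gene-end peaks of genes with CACGTG the medians were 23.5 and 27 bp in the starved lists and 12.5 and 17 bp in the normal lists. These distances are to the nearest E-box and were not matched for the number of E-boxes. The 5 genes held at least 2 each, while most genes with CACGTG and a call in at least 1 list held 1 (258 genes, against 74 with 2 and 12 with 3 or more).

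**Figure D5:**
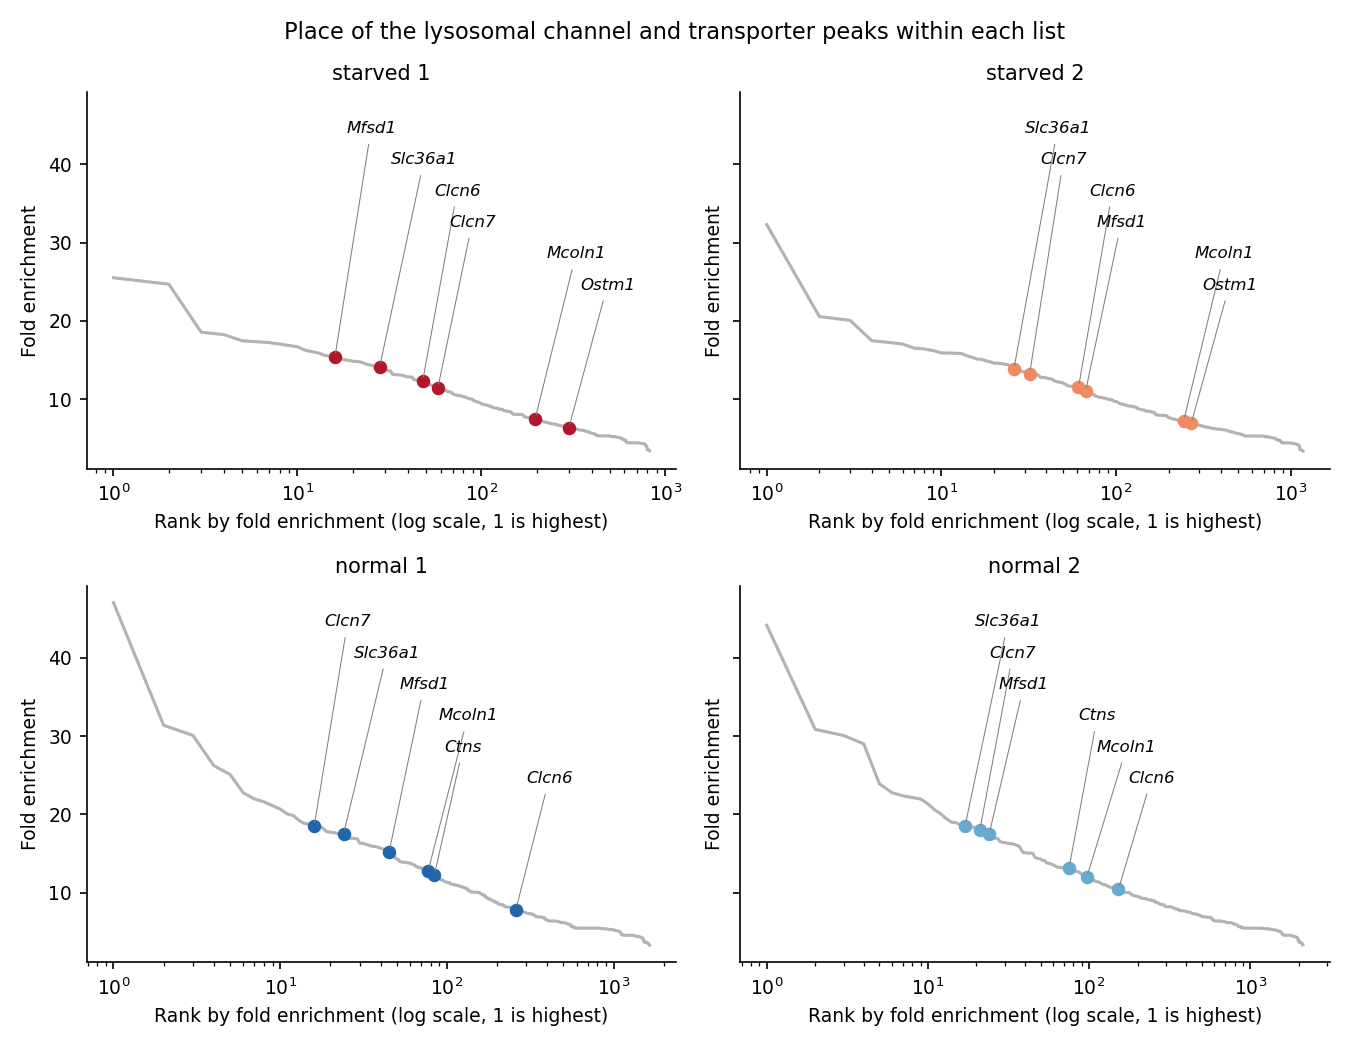
Fold enrichment (y axis) against its rank within the list (x axis, log scale, 1 is highest) for all peaks of each of the 4 lists (grey line), with the peaks of the lysosomal channel and transporter genes as coloured points. The leading member is Mfsd1 in starved 1 (rank 16), Slc36a1 in starved 2 (rank 26), Clcn7 in normal 1 (rank 16) and Slc36a1 in normal 2 (rank 17).

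A panel of 56 further channels and transporters of lysosomes and late endosomes was looked up in the same way. Of these, 2 had a gene-end peak in both starved lists, against 1.78% of protein-coding genes, and 5 in both normal lists, against 2.19%. No list called the other 50. Slc12a9, of the cation-chloride cotransporter family, was called in all lists with fold enrichments of 9.47 and 9.92 in the starved and 12.2 and 14.4 in the normal lists. Slc26a11, a sulfate transporter, had 11.1 and 11.6 in the starved and 10.6 in both normal lists. These regions are shared with Trip6 and with Sgsh, a heparan sulfate hydrolase, as the summits lay within 1000 bp of an end of those genes too.

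Slc38a7, the lysosomal glutamine exporter, had 5.48 in starved 2 alone of the starved lists and 8.46 and 5.94 in the normal lists. Spns1, a lysophospholipid exporter, had 10.5 and 11.4 in the normal lists and no peak in the starved lists. Tmem192, a lysosomal membrane protein gene, was likewise called in the normal lists alone, with its stronger peak at 6.88 and 7.41. Abcb6, a porphyrin transporter whose region is shared with the autophagy gene Atg9a, was called in normal 2 alone (5.40). Of 46 panel genes with a promoter window, 8 held CACGTG (17.4%), and 2 of these 8 had a peak, Slc12a9 and Slc38a7. Among all protein-coding genes with CACGTG, 22.1% (344 of 1559) were called in at least 1 list, so the panel was near that share. Cln3, the only panel gene with 2 E-boxes, had no peak in any list.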

How the data were processed

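Per the submitters' processing notes, Bowtie2 2.5.1, MACS2 2.2.7.1, deepTools 3.5.1 and the build GRCm38 were used; roles and parameters are not given in the sources used here. The authors deposited 1 peak list per USF2 library, so replicates were not pooled. Each deposited peak has a fold enrichment, −log10 p and −log10 q, and a score, which is −log10 q times 10 without its decimals. Whether the inputs served as control is not stated. The highest adjusted p in the lists was 0.0499.

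Only the assembled chromosomes 1 to 19, X and Y were used, which left out 8 peaks of starved 2. Summits were matched to gene spans of the RefSeq table of GRCm38.p6, the build of the lists. The table gives no exons, so positions in exons, introns or UTRs are not stated; strand came from the promoter table. Peaks overlapping by at least 1 bp formed a region. Summit reads were recovered for each peak by finding the integer count, and the background implied by the fold with 1 added to both, that give the deposited −log10 p (all within 0.001). Medians were 8 and 6 summit reads in the starved lists and 5 and 6 in the normal lists. Read depth is otherwise unknown. Gene assignment and pileup recovery were tested on simulated peaks. The simulated backgrounds did not reach as low as 0.226 reads at Ctns or 0.316 reads at Mfsd1 in the normal lists. Nor did they reach the 0.494 reads at Mfsd1 in starved 1. Peaks of 3 reads were not simulated either.

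The named genes were all 10 members, the genes sharing their regions and panel genes with a gene-end peak; 1 result by this rule is not reported here. The members, the panel and the tests were chosen with earlier results of these data known. The only test was an exact two-sided permutation over lists. Python 3.11.15 with scipy 1.17.1 was used.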

Additional observations from a re-analysis of the deposited data

How the results depend on the processing

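Windows of 500 and 5000 bp, any peak base in place of the summit, peaks inside genes, the 825 best peaks of each list and summits of at least 10 reads left 6 genes called in both starved lists, 6 in both normal lists and 5 in all 4. With −log10 q of at least 5, Ostm1 lost its call in starved 1, leaving 5 in both starved lists (difference −0.5, exact permutation p = 1). Leaving out any 1 replicate gave counts of 6, 6 and 5 and a difference of 0. The difference was also 0 with the replicate number as a block (exact permutation within numbers, p = 1, the smallest possible being 0.5). As every list called 6 genes, pairing by number could not be checked. With a reciprocal overlap of 50% 3 of the 5 regions were shared by all lists; at Mcoln1 and Mfsd1 the wider starved peaks separated from the normal ones. Over all annotated genes the background was 0.905% (both starved lists), 1.14% (both normal lists) and 0.565% (all 4 lists). Ranked by −log10 q, the median rank was 42.5 in starved 1, 67.5 in starved 2, 43.5 in normal 1 and 38 in normal 2, against 53, 64, 61 and 49.5 by fold enrichment, so it was lower in number in 3 lists and higher in starved 2. Counting CANNTG gave 8 genes, and CACGTG with GT before and AC after it gave 0. Pileups of 10 to 38 reads limit the precision of every peak.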
